A study of Mus musculus with 4 samples.

Results

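The spots described here were the 100 tissue spots of mouse facial skin with the highest share of UMIs in Cd207, Ccl27a, Krt77 and Skint9. They comprised 50 of the 1096 spots holding at least 1000 UMIs in a section taken at postoperative day 4 and 50 of the 653 such spots in a section of unwounded skin. The series held 3530 spots in 4 sections. Both facial sections came from wildtype mice and were flash-frozen for 10x Visium, an assay that captures transcripts of a tissue section on a grid of barcoded spots and counts them through unique molecular identifiers (UMIs). The oral mucosa sections of the same study were used only for a count of the 4 genes. No strain, age or number of animals is stated in the labels. Each group held 1 section, so no test was run, and every interval below is an exact 95% interval for counting error only. One spot covers a small patch of tissue and may hold several cells, also of different types.

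The epidermis is a layered epithelium. Basal keratinocytes divide, spinous cells above them make the keratins Krt1 and Krt10, and granular and cornified cells assemble the barrier from filaggrin, loricrin and late cornified envelope proteins. Langerhans cells are the resident antigen-presenting cells of the mouse epidermis and carry langerin, the product of Cd207, while gamma delta T cells with dendrites share the same layer. Ccl27a encodes a keratinocyte chemokine, Krt77 a keratin of the suprabasal epidermis, and Skint9 a member of the Skint family, whose founding gene is needed for those T cells to develop in mice.

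The 4 genes contributed unequally to the choice of spots. Krt77 supplied 97.7% of the UMIs of the 4 genes in the chosen day 4 spots and 89.6% in the chosen unwounded spots. Skint9 supplied 1.13% at day 4 and 2.16% in unwounded skin, Ccl27a 0.964% and 7.20%, and Cd207 0.179% and 1.04%. Ranking by Krt77 alone picked 49 of the 50 day 4 spots and 43 of the 50 unwounded spots. Ranking without Krt77 picked 3 at day 4 and 25 in unwounded skin, and ranking by the list of 20 Langerhans and dendritic cell genes picked 0 and 2. The set was therefore a set of Krt77-led epidermal spots and is called so below. In the mm10 build, using the GRCm38.p6 annotation, Krt77 lies at chr15:101858731-101869706, Cd207 at chr6:83671207-83677857, Ccl27a at chr4:41769467-41774225 and Skint9 at chr4:112385969-112433985.

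The score that chose the spots was the share of UMIs in the 4 genes. It ran over 0.944%, 1.22% and 1.81% (lowest, median and highest spot) at day 4 and over 0.394%, 0.569% and 1.52% in unwounded skin. The spots ranked 50 and 51 had 0.944% and 0.936% at day 4 and 0.394% and 0.392% in unwounded skin, so the boundary between members and other spots was not a gap in either section. The lowest day 4 member lay above the median unwounded member.

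The Krt77-led spots held 1160979 UMIs at day 4, 11.7% of the 9934290 UMIs of that section, and 1067896 UMIs in unwounded skin, 8.94% of 11939479. Single spots held 3368 to 79854 UMIs at day 4 (median 19357.5) and 1620 to 73628 in unwounded skin (median 20792.5). The sections as a whole differed more in depth, with a median of 5372 UMIs per spot at day 4 and 16128 in unwounded skin. The sections also differed in sex-linked genes. Xist, the RNA that silences an X chromosome in female cells, had 95 UMIs in the day 4 members and 0 in the unwounded members, and the Y-linked Eif2s3y had 0 at day 4 and 73 in unwounded skin. Ddx3y, Uty and Kdm5d, also Y-linked, were lower at day 4 as well. The members thus had a female pattern at day 4 and a male pattern in unwounded skin, so the sections came from different animals. A list of 22 genes that mark keratinocytes of wounds and inflamed skin summed to 3096 CPM (UMIs scaled to a common total) in the day 4 members and 16362 CPM in the members of the section labelled unwounded; the section labelled unwounded thus held more of these transcripts. Wounding, the animal, the section and these differences cannot be told apart.

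The spots lay in different places on the 2 arrays. The median row and the median column of spots cut each section into 4 parts, of which part 2 has low row and high column, part 3 high row and low column, and part 4 both high. At day 4 all 50 spots lay in part 3, the largest connected group held 39 of them, and 60% lay at the edge of the tissue, against 31.1% of all day 4 spots with the minimum of UMIs. The unwounded spots fell into 14 connected groups of at most 9 spots, spread over parts 2, 3 and 4 with 13, 19 and 18 spots, and 84% lay at the tissue edge, against 41.0% of all such unwounded spots. The 2 sets shared no barcode, that is no array position, although the sections shared 116.

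**Figure D1:**
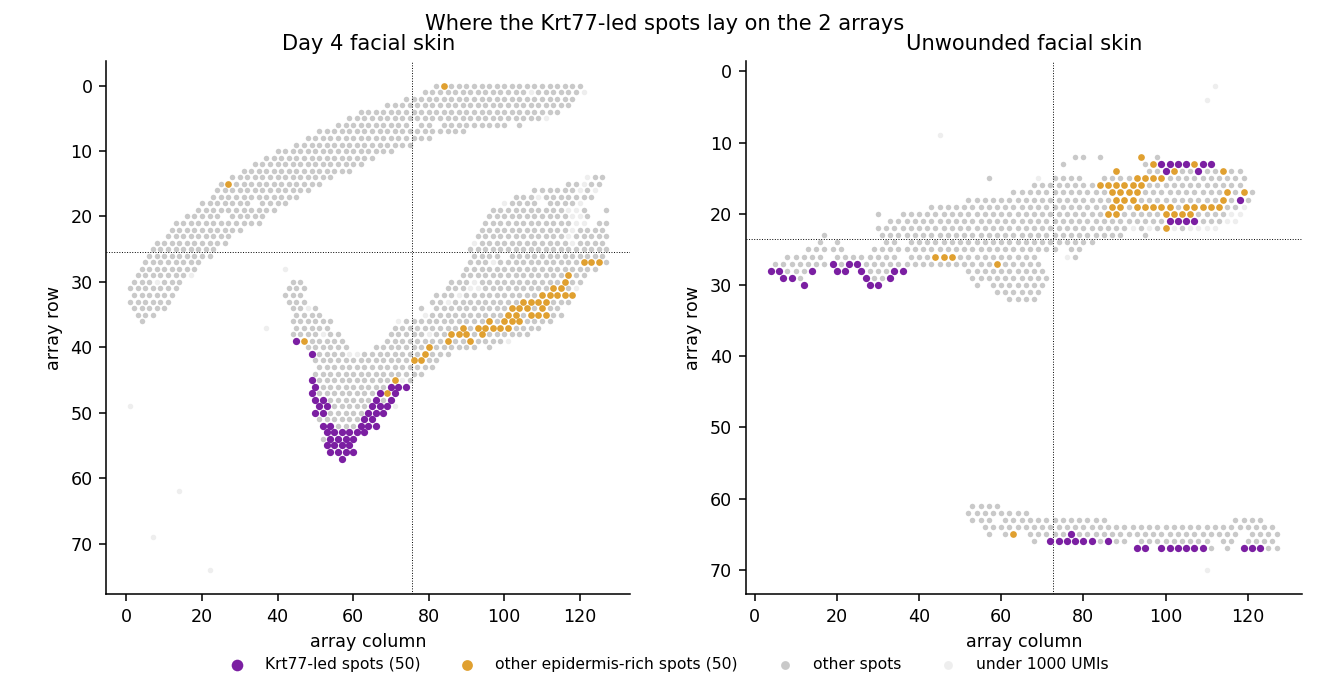
Array position of every tissue spot in the day 4 section (left) and the unwounded section (right), with array column on the horizontal and array row on the vertical axis and dotted lines at the median row and column. The 50 Krt77-led spots (purple) form a rim in 1 part at day 4 and lie in 3 parts of the unwounded section, while the 50 other epidermis-rich spots (orange) lie mostly elsewhere.

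Levels below are CPM, the UMIs of a gene over the summed spots scaled to a common total. Krt77 stood at 12222 CPM in the day 4 spots and 5818 CPM in the unwounded spots, and ran over 8483, 11890 and 18083 CPM (lowest, median, highest spot) against 2241, 5342 and 15020 CPM. Its 2 ranges overlapped, and its log2 ratio of day 4 to unwounded was 1.07. Skint9 was level between the sections, with 141 CPM at day 4 and 140.5 CPM in unwounded skin (log2 ratio 0.01, interval -0.32 to 0.34). Both values are part of the score and describe the choice of spots.

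The other 2 genes ran the opposite way. They too are part of the score, so their values also describe the choice of spots. Ccl27a had 121 CPM at day 4 and 467 CPM in unwounded skin (log2 ratio -1.95), and was seen in 34 of 50 and 39 of 50 spots. Cd207 had 26 UMIs at day 4 and 72 in unwounded skin, or 22.4 and 67.4 CPM (log2 ratio -1.59, interval -2.30 to -0.93). A Cd207 UMI was found in 16 of the 50 day 4 spots and in 27 of the 50 unwounded spots, and after thinning every spot to 1000 UMIs in 1 and 6. In summed spots, fewer cells of a type and less RNA per cell cannot be told apart.

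The chosen spots held 52.9% of all Krt77 UMIs in the usable day 4 spots and 52.2% in the unwounded ones, but only 26.8% and 41.4% of the Cd207 UMIs and 13.2% and 35.5% of the Ccl27a UMIs. Most Cd207 UMIs of each section therefore lay outside the Krt77-led spots. Over the 1046 other day 4 spots and the 603 other unwounded spots Cd207 averaged 8.12 and 9.39 CPM and Ccl27a 105 and 83.6 CPM. Ccl27a in the day 4 members was thus close to its level in the rest of that section (log2 ratio of members to other spots 0.20, interval -0.07 to 0.45), while the unwounded members stood above the rest of theirs (log2 ratio 2.48). Ranking by Ccl27a alone picked 3 of the 50 day 4 members and 23 of the 50 unwounded members. The score thus drew on Ccl27a more in unwounded skin, and these ratios describe the choice.

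**Figure D2:**
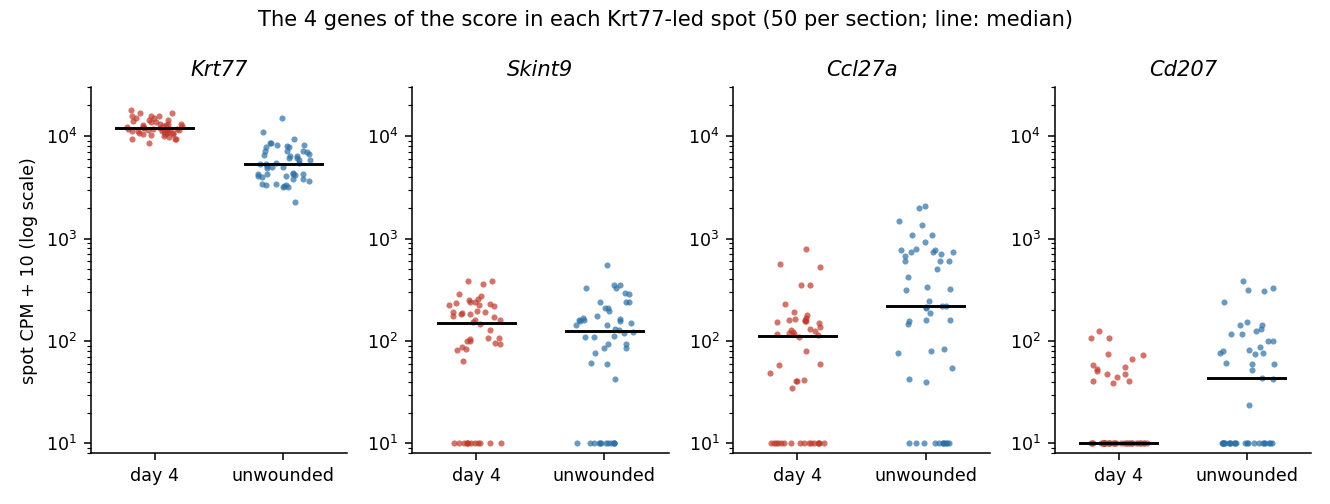
CPM plus 10 (log scale) of the 4 genes of the score in each of the 50 Krt77-led spots at day 4 (left, red) and in unwounded skin (right, blue), with a line at the median. Krt77 was present in every spot, whereas 16 of 50 day 4 spots and 27 of 50 unwounded spots had a Cd207 UMI.

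Day 4 was then set against unwounded skin within the Krt77-led spots across all genes. A gene with at least 20 UMIs over both pools was measured, and it was called higher or lower where the CPM of the pools were at least 1.5-fold apart with Poisson intervals that did not overlap. Of 9159 measured genes 301 were higher at day 4 (3.29%) and 1011 were lower (11.0%), with a median log2 ratio over all genes of -0.19. List medians below are of log2 ratios after adding 10 CPM to each pool. With TMM scaling, which moved the median to 0.02, 649 were higher and 502 lower. Totals without mitochondrial and the most abundant genes gave 404 higher and 745 lower, and the UMIs of Krt5, Krt14, Krt1 and Krt10 as reference gave 53 and 4429. The balance of higher and lower genes thus depended on the scaling, and lists are read against the all-gene median.

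Barrier genes were the group with the most members higher at day 4 by number, while the erythrocyte list was higher in 4 of 4 measured. Of 21 granular and cornified layer genes 12 were higher and 3 lower, the list median was 0.76 against -0.19 for all genes, and the list summed to 61852 CPM at day 4 and 29757 CPM in unwounded skin. Flg, which encodes filaggrin, the keratin-binding protein of the granular layer, ran over 3812, 11041 and 34191 CPM at day 4 and 152, 1767 and 20087 CPM in unwounded skin. The day 4 spots were on the whole higher and the ranges overlapped. Its pool level was 11463 CPM at day 4 and 2780 CPM in unwounded skin (log2 ratio 2.04, interval 1.99 to 2.10). Lor, encoding the cornified envelope protein loricrin, had 20260 and 9033 CPM (1.17). The late cornified envelope genes Lce1m (2051 and 785 CPM, 1.39) and Lce1a2 (2849 and 1185 CPM, 1.27) and Asprv1, the protease that processes filaggrin (5650 and 2412 CPM, 1.23), went the same way. The lowest member score was 0.944% at day 4 and 0.394% in unwounded skin, mostly from the suprabasal Krt77. The part of that choice in the result was not tested. With the score without Krt77, which kept 3 of 50 day 4 and 25 of 50 unwounded members, Lce1m had a ratio of -0.056 (10 CPM added).

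The exceptions in the barrier group were Rptn, Cst6 and Tgm1. Rptn, which encodes repetin, had 147 CPM at day 4 and 353 CPM in unwounded skin (log2 ratio -1.26). Cst6, an inhibitor of cysteine proteases, had 1065 and 2106 CPM, and Tgm1, the transglutaminase that cross-links the envelope, had 109 and 181 CPM. None of the 16 barrier lipid genes, which build the ceramide and lipoxygenase pathway of the stratum corneum, was higher or lower by the rule, and their median was 0.11, or -0.50 with 6 lower with the keratin reference and -0.42 with 4 lower against unwounded part 2 alone. With only the 13 unwounded spots of part 2 in the unwounded pool, a choice made after seeing the data, the median of the granular and cornified list was 0.03.

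Spinous genes leaned the same way with smaller ratios. Of 17 measured, 5 were higher at day 4 and 0 lower, with a median of 0.20. Krt10 ran over 10232, 25110 and 44844 CPM at day 4 and 3871, 9971 and 32868 CPM in unwounded skin (28895 and 11646 CPM in the pools, log2 ratio 1.31). Sbsn, encoding suprabasin, had 5393 and 2998 CPM (0.85). Mt4, a metallothionein of stratified squamous epithelia, had 699 and 38.4 CPM (4.19) and was seen in 47 of 50 day 4 spots and 19 of 50 unwounded spots. With the UMIs of Krt5, Krt14, Krt1 and Krt10 as reference in place of all UMIs the spinous median was -0.46. Krt1 and Krt10 are themselves members of the spinous list and were higher at day 4, so that reference is not independent of the list.

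Of 12 basal keratinocyte genes 1 was higher and 2 lower. The 1 was Krt15, a keratin of basal cells and of the hair follicle bulge, with 0, 2060 and 6238 CPM over the day 4 spots and 0, 481 and 2765 CPM over the unwounded spots (2685 and 523.5 CPM in the pools, log2 ratio 2.36). The 2 lower genes were Itga3 and Itga6, which encode integrin chains that anchor basal cells. Of 13 proliferation genes 0 were higher and 4 lower (Cdk1, Ccnb1, Pcna and Ccna2), with a median of -0.61. Against unwounded part 2 alone the median was 0.29 with 0 genes called, and Cdk1 and Ccna2, with 32 and 44 UMIs at day 4, had 0 and 4 UMIs in part 2, so their direction was not measurable there.

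Keratins and antimicrobial proteins that mark keratinocytes of wounds and inflamed skin were lower in the day 4 spots. Of 19 measured wound keratinocyte genes 15 were lower and 0 higher, against 11.0% of all genes lower. The list median was -2.06. Krt17 had 190 CPM at day 4 and 1510 CPM in unwounded skin (log2 ratio -2.99), Krt16 had 620 and 3932 CPM (-2.66) and Krt6a had 134 and 800 CPM (-2.57). These genes encode the keratins that keratinocytes switch on after injury.

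S100a8, a subunit of calprotectin that neutrophils and activated keratinocytes make, ran over 0, 0 and 1266 CPM at day 4 and 0, 768 and 7059 CPM in unwounded skin. It was seen in 13 of 50 day 4 spots and 49 of 50 unwounded spots, and the pools had 71.5 and 1676 CPM (log2 ratio -4.55). Stfa1, a cysteine protease inhibitor of the stefin A family whose near-identical copies may share reads, had 30.1 and 963 CPM (-5.00). The cornified envelope precursors Sprr1a (140 and 1082 CPM, -2.95) and Sprr1b (227 and 608 CPM, -1.42) were lower as well.

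Immediate early genes, which encode transcription factors and phosphatases made within minutes of a stimulus, were lower as well. Of 10 measured 9 were lower and 0 higher, with a median of -2.63. Fos, a subunit of the transcription factor AP-1, had 18.1 CPM at day 4 and 352 CPM in unwounded skin (log2 ratio -4.28) and was seen in 16 and 35 of 50 spots. Egr1, a zinc finger transcription factor, had 37.0 and 389 CPM (-3.39). Nr4a1, an orphan nuclear receptor, had 2 UMIs at day 4 and 127 in unwounded skin (-6.11, interval -9.17 to -4.23).

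The promoters of 3 of these epidermal genes are shown, of which Sprr1a and Sprr1b stood lower and Flg higher at day 4. They were not picked by a rule. All 3 hold the motif below, and a link to Fos was not tested. The sequences are from RefSeq on GRCm38.p6 and span 250 bases before to 50 bases after the annotated start, 5′ to 3′ on the gene's strand. Capitals mark TGANTCA, a loose form of the AP-1 motif that allows any base at N and reads as TGANTCA on the other strand too. It is wider than the form with G or C at that place. The matches read TGAGTCA in Sprr1a and TGAATCA in Sprr1b and Flg. Sprr1a lies at chr3:92485832-92486131 (minus strand), Sprr1b at chr3:92438730-92439029 (minus strand) and Flg at chr3:93273296-93273595 (plus strand).
Sprr1a: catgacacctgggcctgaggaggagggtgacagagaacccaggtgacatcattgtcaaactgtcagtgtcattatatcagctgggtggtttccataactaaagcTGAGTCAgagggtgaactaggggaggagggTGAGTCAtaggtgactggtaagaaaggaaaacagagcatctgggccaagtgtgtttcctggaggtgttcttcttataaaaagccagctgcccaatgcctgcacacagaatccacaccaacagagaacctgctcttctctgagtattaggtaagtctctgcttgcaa
Sprr1b: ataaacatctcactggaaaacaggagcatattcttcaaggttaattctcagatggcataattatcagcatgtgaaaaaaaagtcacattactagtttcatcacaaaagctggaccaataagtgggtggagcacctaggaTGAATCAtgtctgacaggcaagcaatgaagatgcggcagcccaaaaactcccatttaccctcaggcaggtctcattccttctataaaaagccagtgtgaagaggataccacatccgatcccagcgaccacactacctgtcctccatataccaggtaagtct
Flg: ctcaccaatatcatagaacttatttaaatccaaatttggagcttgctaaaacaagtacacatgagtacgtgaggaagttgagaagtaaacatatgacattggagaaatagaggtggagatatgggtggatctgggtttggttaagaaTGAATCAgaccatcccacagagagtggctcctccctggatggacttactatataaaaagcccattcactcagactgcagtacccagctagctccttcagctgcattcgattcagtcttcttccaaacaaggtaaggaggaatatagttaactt
The motif occurred in 2144 of 27025 promoters of the table (7.93%) and in 394 of the 7332 promoters of measured genes (5.37%), from which the called genes come. It occurred in 27 of 230 promoters of genes higher at day 4 (11.7%) and in 63 of 803 of genes lower (7.85%), in 7 of 14 of the wound keratinocyte list and in 5 of 18 of the granular and cornified list. A match is a description of the letters and not a bound site, and a link between matches and direction was not tested. Among wound keratinocyte genes lower at day 4, Plaur, Sprr1a, Sprr1b, Sprr2d and Stfa3 had a match. Areg, Lcn2, S100a8, S100a9 and Stfa1 were lower with 0 matches, and Il1rn and Sprr2h had 1 match each and were not called.

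Genes of Langerhans and dendritic cells were lower in the day 4 spots. Of 20 listed genes 14 were measured, of which 13 were lower and 0 higher, with a median of -1.13 and a sum of 1432 CPM at day 4 and 2968 CPM in unwounded skin. Cd74, the invariant chain of MHC class II, ran over 0, 261 and 1638 CPM at day 4 and 0, 676 and 2670 CPM in unwounded skin (383 and 861 CPM in the pools, log2 ratio -1.17). H2-Aa, an MHC class II chain, had 158 and 350 CPM (-1.15). Mfge8, which encodes a protein that bridges phagocytes to apoptotic cells, had 111 and 296 CPM (-1.41). Fcer1g, the shared signalling chain of Fc receptors, had 22.4 and 81.5 CPM (-1.86), and Ccl22, a chemokine of mature dendritic cells, had 2 and 30 UMIs. Against unwounded part 2 alone, and with 10 CPM added, H2-Aa and Fcer1g had log2 ratios of 1.05 and 0.78, opposite in sign, with 8 and 1 UMIs in part 2. Macrophages share several of these genes. The macrophage list was also lower in 7 of 11 measured genes (sum 212 and 655 CPM) and the fibroblast list in 7 of 13 (sum 1455 and 2938 CPM), and the part of those cells in the result was not tested. The score drew on Ccl27a more in unwounded skin than at day 4, and the part of that choice was not tested either.

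MHC class I genes, which nearly all nucleated cells express, were lower in 7 of 9 measured and higher in 0. H2-K1 ran over 172, 549 and 932 CPM at day 4 and 0, 2150 and 5379 CPM in unwounded skin (579 and 2207 CPM in the pools, log2 ratio -1.93). B2m, the light chain, had 1210 and 2174 CPM (-0.85), and Tap2, a subunit of the peptide transporter, 29 and 86 UMIs. Of 10 listed interferon-stimulated genes 4 were measured, with 2 lower and 0 higher.

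Signals by which keratinocytes maintain or attract immune cells were mixed. Of 11 measured, 1 was higher (Il18) and 4 lower (Ccl20, Cxcl14, Il34 and Tgfb1). Il18, an interleukin-1 family cytokine, had 341 CPM at day 4 and 170 CPM in unwounded skin (log2 ratio interval 0.74 to 1.26). Il34, the keratinocyte ligand of Csf1r that Langerhans cells depend on in mice, had 17.2 and 55.3 CPM (-1.68). Against unwounded part 2 alone, and with 10 CPM added, Il18 and Il34 had log2 ratios of -0.22 and 0.53, opposite in sign, with 45 and 1 UMIs in part 2. Ccl20, the ligand of Ccr6, had 5 and 132 UMIs, in 2 and 38 of 50 spots (4.31 and 124 CPM, -4.84). Cxcl14, a chemokine made in steady-state epithelium, had 19.0 and 240 CPM (-3.66). Within the Skint family 2 of 9 measured members were higher and 1 lower, and its median of -0.17 was near the -0.19 of all genes. Skint10 had 88.7 and 47.8 CPM and Skint7 23 and 4 UMIs, while Skint3 had 53.4 and 110 CPM. The genes of T cells were mostly too few to measure, with 3 of 21 passing the minimum and Trbc1, a T cell receptor constant gene, at 1 and 23 UMIs.

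**Figure D3:**
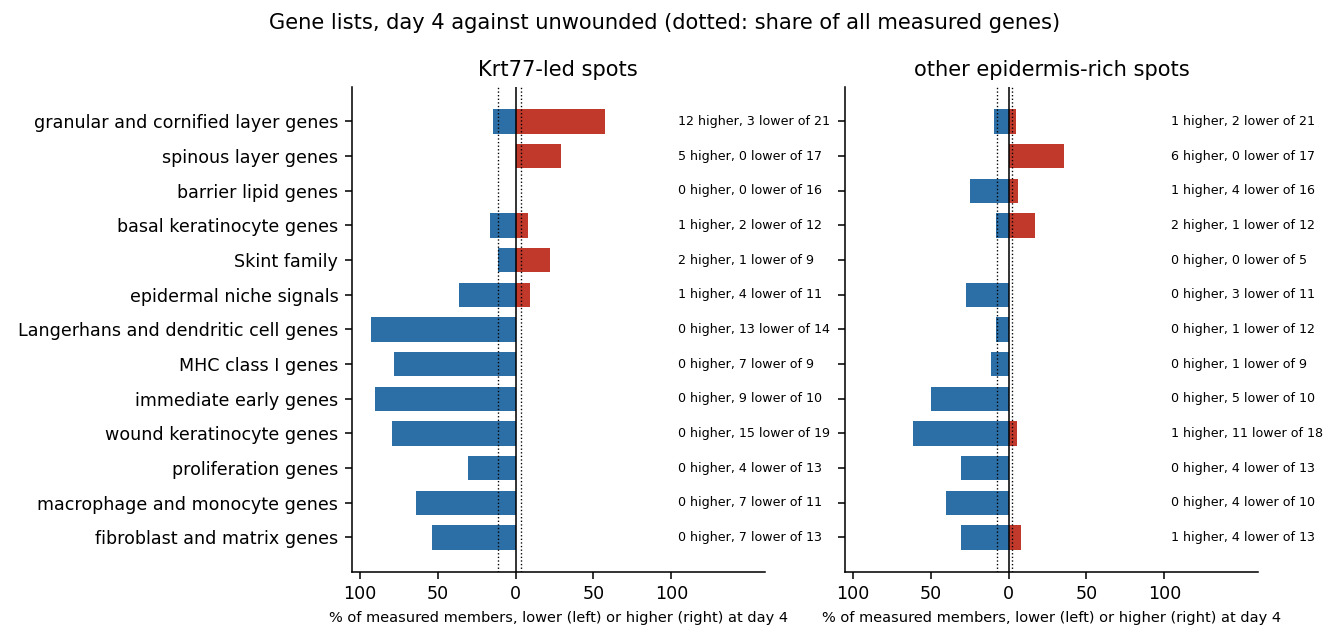
Share of each list's measured members that were lower (blue, to the left) or higher (red, to the right) at day 4, in the Krt77-led spots (left) and the other epidermis-rich spots (right), with dotted lines at the share of all measured genes. In the Krt77-led spots 12 of 21 granular and cornified genes were higher and 13 of 14 Langerhans and dendritic cell genes lower, against 1 of 21 and 1 of 12 in the other epidermis-rich spots. The 2 sets lay mostly in different places, with 45 of the 50 other epidermis-rich unwounded spots in part 2.

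With 10 CPM added, the 6 highest ratios at day 4 among genes with at least 100 UMIs (haemoglobin, mitochondrial, Gm and Rik genes left out) belonged to Krtap3-2, Mt4, Krt15, Flg, Wfdc21 and Tle6. Krtap3-2, a keratin-associated protein gene of the hair shaft with near-identical relatives, had 253 UMIs at day 4 in 48 of 50 spots and 3 UMIs in unwounded skin in 2 (log2 ratio 6.28, interval 4.71 to 8.56). Wfdc21, encoding a small secreted protein, had 464 and 106 CPM (2.13). Serpina12, encoding the serpin vaspin, had 318 and 81.5 CPM (1.96), and Tle6 had 140 and 29.0 CPM (2.27). Crispld2, encoding a secreted cysteine-rich protein, had 309 and 85.2 CPM (1.86), but 1 day 4 spot reached 5790 CPM while the median spot had 89 CPM at day 4 and 66 CPM in unwounded skin. Haemoglobin transcripts were uneven too, with Hbb-bs at 1517 and 205 CPM in the pools and up to 59259 CPM in 1 day 4 spot.

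At the low end, besides Stfa1, S100a8, S100a9, Fos and Nr4a1, stood Saa3, Atp12a and 3 genes of the late cornified envelope 3 group. Saa3, an acute phase protein, had 3 UMIs at day 4 and 212 in unwounded skin (log2 ratio -6.26, interval -8.55 to -4.70). Atp12a, a proton pump subunit, had 12.9 and 346 CPM (-4.74). Lce3f had 18.1 and 271 CPM (-3.90), so the Lce3 genes, which are known from injured and psoriatic epidermis, went the opposite way from Lce1m and Lce1a2. Gas6, the ligand of Axl, had 169 CPM at day 4 and 159 CPM in unwounded skin (log2 ratio 0.08, interval -0.22 to 0.39). Axl had 35.3 and 54.3 CPM (-0.62, interval -1.23 to -0.02). Neither met the rule, whereas Pros1 (26.7 and 51.5 CPM) and Tyro3 (58 and 94 UMIs), another ligand and receptor of the same family, were lower.

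**Figure D4:**
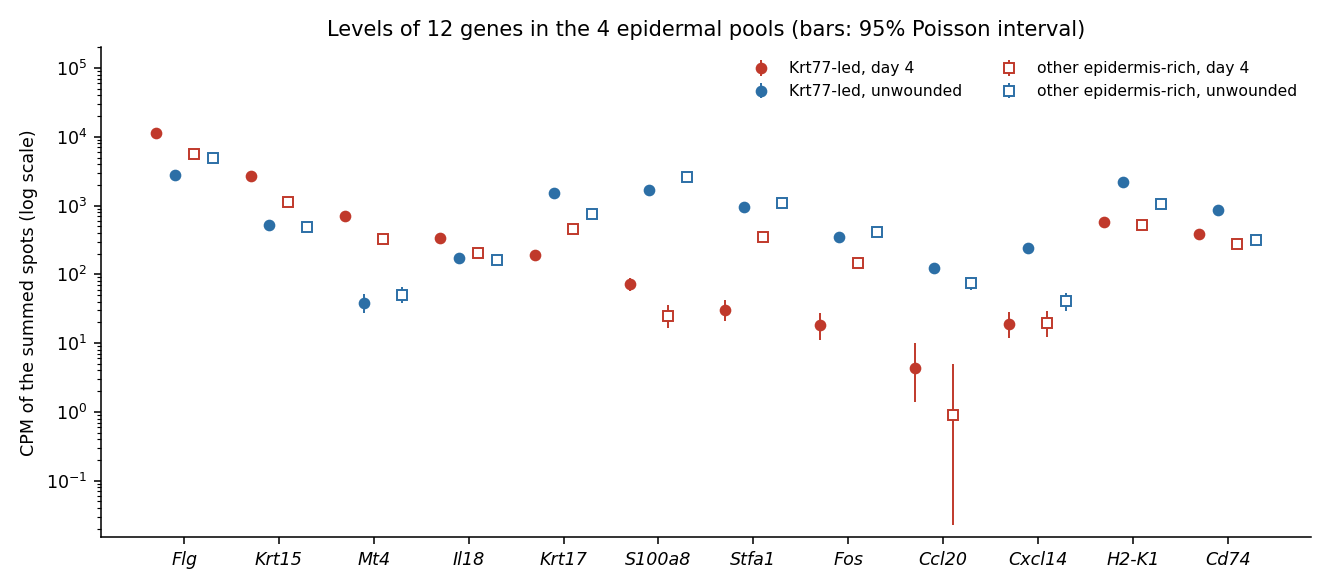
CPM of the summed spots (log scale) for 12 genes in the Krt77-led spots at day 4 (filled red) and in unwounded skin (filled blue) and in the other epidermis-rich spots at day 4 (open red) and in unwounded skin (open blue), with exact 95% Poisson intervals. Flg, Krt15, Mt4 and Il18 were higher and the remaining 8 genes lower at day 4 in the Krt77-led spots.

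The day 4 to unwounded differences were set beside those of epidermis that the score did not choose. The 50 non-member spots of each section with the highest share of UMIs in Krt5, Krt14, Krt1 and Krt10 served for this. They held 1126814 UMIs at day 4 and 1116203 in unwounded skin, with 45 of 50 in 1 part of each section (part 4 at day 4 and part 2 in unwounded skin). Of 8884 genes measured in them 200 were higher at day 4 (2.25%) and 639 lower (7.19%). The wound keratinocyte list was lower in 11 of 18 and higher in 1, and the neutrophil list was lower in 5 of 5, with sums of 28.4 and 261 CPM. The same neutrophil list summed to 23.3 and 268 CPM in the Krt77-led spots. S100a8 had 24.8 CPM at day 4 and 2565 CPM in unwounded skin in these other spots.

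In the other epidermis-rich spots 1 of 21 granular and cornified genes was higher at day 4 and 1 of 12 Langerhans and dendritic cell genes lower. Flg had 5701 CPM at day 4 and 4985 CPM in unwounded skin there, and Lor 7169 and 7287 CPM. Cd74 had 277 and 320 CPM and H2-Aa 122 and 125 CPM there. Krt6b had 1881 and 1523 CPM there, against 115 and 694 CPM in the Krt77-led spots. The difference between the 2 contrasts was not tested, since each rests on 1 section per group. Place also differed, since 45 of the 50 other epidermis-rich unwounded spots lay in part 2. In the Krt77-led spots of part 2 the granular and cornified list summed to 53039 CPM and the Langerhans list to 1528 CPM. The day 4 members had 61852 and 1432 CPM. Type of spot and place cannot be told apart here.

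Within the day 4 section the Krt77-led spots were compared with the other spots. Of 12996 measured genes 864 were higher (6.65%) and 3114 lower (24.0%), with a median of -0.25. TMM scaling gave 1593 higher and 1975 lower, and the keratin reference 153 and 7683. Since the spots were chosen on these data, the values describe the choice. Granular and cornified genes were higher in 19 of 21 with Rptn as the 1 lower gene, spinous genes in 11 of 17, barrier lipid genes in 9 of 16 with 2 lower, and Skint genes in 7 of 9. Fibroblast genes were lower in 14 of 14, macrophage genes in 12 of 12, sebaceous gland genes in 12 of 12 and skeletal muscle genes in 8 of 8. Langerhans and dendritic cell genes were higher in 0 of 19 and lower in 5. Against the 50 other epidermis-rich spots of day 4, 551 of 8765 genes were higher (6.29%) and 325 lower (3.71%), or 1747 and 65 with the keratin reference, and the Langerhans list was higher in 2 of 11 (Tnfaip2 and H2-Eb1).

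Genes that led the day 4 members over the other day 4 spots were Crispld2, Alox12e, Lce1m, Chil1, Krtap3-2, Prss27, Skint10, Krt2 and Dapl1. Crispld2 was uneven over the members, as given above. With the score without Krt77, Crispld2, Lce1m, Prss27 and Krt2 had ratios of -0.13, -0.047, -0.19 and -0.080 (10 CPM added), opposite in sign. Alox12e, an epidermal lipoxygenase gene, had 440 CPM in the members and 81.2 CPM in the other spots (log2 ratio 2.44) and was seen in 50 of 50 member spots. Krt2, a keratin of the upper spinous and granular layers in mouse ear, tail and sole, had 58 UMIs in the members and 63 over the 1046 other spots (2.79). Dapl1 had 422 and 114 CPM (1.89). Against the other epidermis-rich spots of day 4, Krt6b had 115 CPM in the members and 1881 CPM in those spots (-4.03), Krt6a 134 and 1771 CPM (-3.72) and Krt16 620 and 4120 CPM (-2.73). Immediate early genes were lower in 7 of 9, with Fos at 18.1 and 148 CPM (-3.03). Lcn2, S100a8, Defb14 and S100a9 were the 4 wound keratinocyte genes higher in the members, with S100a8 at 71.5 and 24.8 CPM (1.52).

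Within the unwounded section 670 of 13253 genes were higher in the Krt77-led spots than in the other spots (5.06%) and 1528 lower (11.5%), with a median of -0.10. The keratin reference gave 188 higher and 4551 lower. Granular and cornified genes were higher in 13 of 21 and lower in 1 (Rptn), spinous genes in 9 of 17, and Skint genes in 8 of 9. Of 20 Langerhans and dendritic cell genes 3 were higher (Mfge8, Ccl22 and Itgax) and 6 lower. Mfge8 had 296 CPM in the members and 137 CPM in the other spots (log2 ratio 1.12). Niche signals were mixed, with a list median of -0.04. Among those with at least 100 UMIs over both pools 4 were higher (Ccl20, Il34, Cxcl14 and Il1a) and 1 lower. In the day 4 section 2 of 15 measured niche signals were higher in the members than in the other spots and 3 lower. Il34 had 55.3 CPM in the members and 26.4 CPM in the other spots (1.06).

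Against the 50 other epidermis-rich spots of the unwounded section, 497 of 9207 genes were higher (5.40%) and 159 lower (1.73%). The split was 304 and 330 with TMM scaling, 376 and 233 without mitochondrial and abundant genes, and 3614 and 12 with the keratin reference. The Langerhans and dendritic list was higher in 10 of 14 and lower in 0, with a median of 0.97 against 0.09 for all genes, and the MHC class I list was higher in 7 of 9. H2-Aa had 350 CPM in the members and 125 CPM in those spots (log2 ratio 1.48), and Cd74 861 and 320 CPM (1.43). Both sets of spots were chosen on these data, so the values of this comparison describe the choice. Cd207, at 67.4 and 7.17 CPM, is itself a gene of the score. Leaving Cd207 out of the score kept 50 of the 50 unwounded members, leaving out Ccl27a 45 and leaving out Krt77 25. How far the Langerhans list followed the score was not tested. Macrophage genes were higher in 4 of 11 (C1qa, C1qb, C1qc and Lyz2), and their part in the result was not tested. Cxcl14 had 240 CPM in the members and 40.3 CPM in those spots (2.57). Of those 50 spots 45 lay in part 2, which held 13 of the 50 members. In the part 2 members H2-Aa had 71.1, Cd74 409 and Cxcl14 53.3 CPM. In the members of parts 3 and 4 H2-Aa had 313 and 489, Cd74 770 and 1131 and Cxcl14 184 and 379 CPM. Membership and place on the section cannot be told apart in this comparison.

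Among the genes that led the unwounded members over the other unwounded spots, besides Krt77, Ccl27a, Skint9 and Cd207 of the score, were Fcgbp, Clca3a2, Il12rb2, Flg2, Dapl1 and Bbox1. Fcgbp, encoding an IgG-binding secreted protein, had 1453 CPM in the members and 205 CPM in the other unwounded spots (log2 ratio 2.83). Clca3a2, encoding a secreted protein of the calcium-activated chloride channel regulator family, had 1774 and 270 CPM (2.72). Il12rb2, a subunit of the interleukin-12 receptor, had 58.1 and 3.87 CPM (3.91) and was seen in 26 of 50 member spots. In the day 4 members these 3 genes stood at 322, 450 and 18.1 CPM, lower than in the unwounded members by the rule. In unwounded part 2 alone Clca3a2 had 480 CPM (interval 360 to 626), which overlaps its day 4 interval of 413 to 491 CPM. Il12rb2 had 0 UMIs in part 2, where the exact interval reaches 32.8 CPM, so no difference from day 4 was measurable there. Flg2, encoding filaggrin 2, had 722 CPM in the members and 151 CPM in the other unwounded spots (2.26). At the low end against the other epidermis-rich spots stood Igfbp2, Aqp3, a water and glycerol channel of basal and spinous cells (410 and 1482 CPM, -1.85), and Krt6a (800 and 2658 CPM, -1.73).

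The unwounded members differed among themselves by place. Part 2 held 13 spots and 112540 UMIs, part 3 19 spots and 575137 UMIs, and part 4 18 spots and 380219 UMIs. Krt77 was similar in the 3, at 5776, 6200 and 5252 CPM in that order. Cd207 had 0 UMIs in part 2, where the floor of 3 UMIs is 26.7 CPM and the exact interval reaches 32.8 CPM. It had 59.1 and 99.9 CPM in the others. Ccl27a had 44.4, 214 and 976 CPM, and H2-K1 1120, 2121 and 2659 CPM. Flg ran the other way, at 6664, 3246 and 926 CPM, and Lor had 19868, 8516 and 6607 CPM.

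Part 2 was thus the closest to the day 4 members in Cd207, Flg, Lor and H2-K1. Its Langerhans and dendritic list summed to 1528 CPM, near the 1432 CPM of the day 4 members, against 2763 and 3703 CPM in parts 3 and 4. In the wound keratinocyte list all 3 parts stood above the day 4 members, with sums of 3096 CPM at day 4 and of 15905, 20336 and 10486 CPM in unwounded parts 2, 3 and 4. Fos had 18.1 CPM at day 4 and 293, 565 and 47.3 CPM in the unwounded parts. With only part 2 in the unwounded pool, an alternative added after seeing the data, 416 genes were called in place of 1312, and the Langerhans list had a median of -0.18, in place of -1.13. Cd207 and Ccl27a then had log2 ratios, with 10 CPM added, of 1.70 and 1.26, opposite in sign to those over all unwounded members. The Cd207 value rests on the CPM added, since part 2 had 0 Cd207 UMIs.

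**Figure D5:**
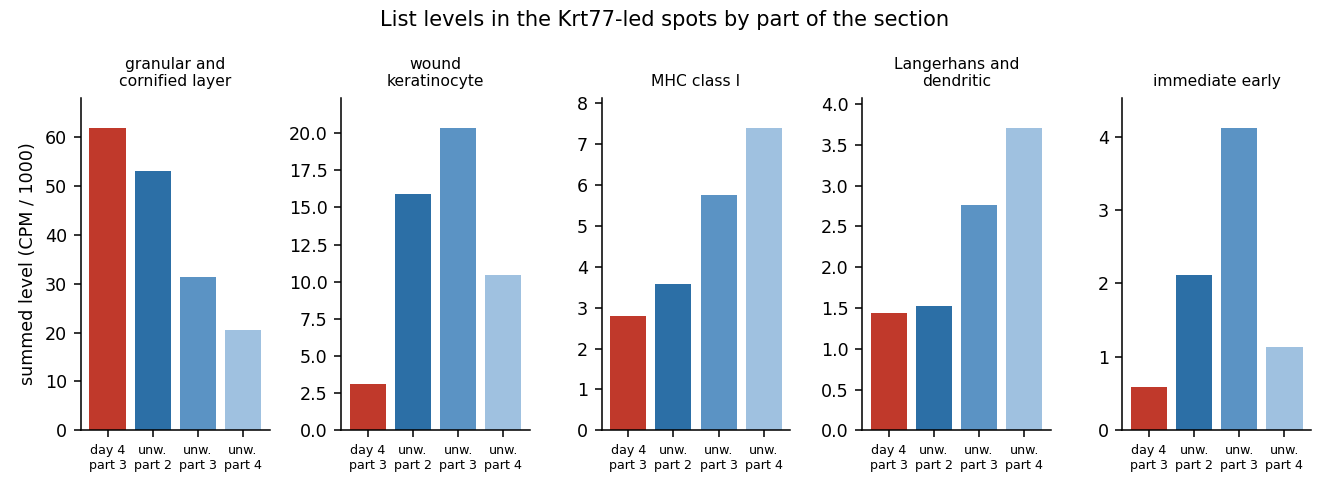
Summed level of 5 gene lists (CPM divided by 1000, each panel from 0) in the Krt77-led spots of the day 4 section (red, all in part 3) and of the 3 parts of the unwounded section that held such spots (blues). The wound keratinocyte list was lowest at day 4 (3096 CPM against 10486 to 20336 CPM), while the Langerhans and dendritic list of unwounded part 2 (1528 CPM) was near day 4 (1432 CPM).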

How the data were processed

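Spatial expression was measured with 10x Visium in 2 sections of mouse facial skin, 1 at postoperative day 4 and 1 unwounded. The deposited matrices hold raw UMI counts per gene and spot, written by Space Ranger version 1.3.1, per the file headers, and listing 32285 genes. The submitters' processing notes name Seurat and the mm10 genome, and the aligner and annotation release remain unstated (not given in the sources used here). Spot positions came from the deposited array coordinates.

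Spots with at least 1000 UMIs were ranked by the share of UMIs in Cd207, Ccl27a, Krt77 and Skint9, and the 50 highest per section were kept. Counts were summed per pool and scaled to CPM with exact 95% Poisson intervals. These cover counting error only, since UMIs of 1 section do not carry variation between animals. Ratios carry the exact conditional Poisson interval. Spots are not replicates, so no p-value was computed. A gene with at least 20 UMIs over both pools was called at a 1.5-fold difference with intervals that did not overlap. A count of 0 was read against a floor of 3 UMIs, which is 2.58 CPM in the day 4 members and 2.81 CPM in the unwounded members. Thinning drew 1000 UMIs per spot. No doublet caller was used. The counting was tested on simulated data.

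Of 322 genes in 27 lists, 320 matched a symbol. Symbols on several rows (38) used the first row, and the other rows named Ccl27a held 1 UMI at day 4 and 2 in unwounded skin. Named genes were the 4 genes of the score, up to 4 called members per list, the 10 highest and 10 lowest called genes per comparison with at least 100 UMIs (without mitochondrial, haemoglobin, Gm and Rik symbols), Gas6 and Axl. Other genes, such as Lor, Sbsn, H2-Aa, Sprr1b, Hbb-bs and Xist, were chosen after their values were seen. The spots and lists were chosen with earlier results of these data known. Alternatives changed the scaling, summing, number of spots, score, minimum depth and counts, fold, pseudocount and part of the section. Promoters and positions came from RefSeq tables on GRCm38.p6. The work used Python 3.11.15, numpy 2.4.6, scipy 1.17.1 and pandas 2.3.3.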

Additional observations from a re-analysis of the deposited data

Results flagged for a closer look

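A pair of genes had day 4 to unwounded ratios in the Krt77-led spots that ran opposite to those in other spots of the same sections, with all intervals on their own side of 0. Crispld2 had 309 CPM at day 4 and 85.2 CPM in unwounded skin in the Krt77-led spots, against 28.4 and 83.3 CPM in the other epidermis-rich spots and 49.9 and 91.3 CPM in all other spots. The difference of the log2 ratios was 3.41 against the other epidermis-rich spots and 2.73 against all other spots, and 1 day 4 spot held up to 5790 CPM. Ccl27a had 121 CPM at day 4 and 467 CPM in unwounded skin in the Krt77-led spots, against 169 and 36.7 CPM in the other epidermis-rich spots, a difference of the log2 ratios of -4.15. Ccl27a is part of the score that chose the spots. These differences were not tested, since each group held 1 section.

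Genes of the score were also counted in the oral mucosa sections, which the comparisons do not use. Cd207 had 5 UMIs in the day 4 oral section and 22 in the unwounded oral section, Ccl27a had 102 and 108, and Krt77 and Skint9 had 0 in both.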

How the results depend on the processing

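Counts of called genes moved over 1.5-fold under some alternatives. Day 4 against unwounded gave 1312 genes, and 4482 with Krt5, Krt14, Krt1 and Krt10 UMIs as reference, 3705 with the mean over spots (fold rule only), 855 with the 25 highest spots, 700 with the score without Krt77, 799 with at least 100 UMIs, 790 at 2-fold and 416 with unwounded part 2 only (added after seeing the data). Against the other day 4 spots, 3978 became 7836, 8268 and 765 with the keratin reference, the mean over spots and the score without Krt77. Against the other unwounded spots, 2198 became 4739, 5571 and 1151 under the same 3, and 1428 at 2-fold. Against the other epidermis-rich spots, 876 at day 4 became 1812, 3100 and 521 under the same 3, 436 at 2-fold and 231 without part 4, and 656 in unwounded skin became 3626, 2952 and 1473, 346 at 2-fold, 415 with at least 100 UMIs and 258 without part 2. Day 4 without part 3 gave no value, since no member remained.

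Signs of log2 ratios (10 CPM added) turned for 24 values of called genes and for 32 of 790 list medians. For 29 of those 32 the reported median was under 1.5-fold, among them the spinous and barrier lipid medians of day 4 against unwounded with the keratin reference (-0.46 and -0.50). With the score without Krt77, day 4 against unwounded gave Krt77 -0.28, Lce1m -0.056, Rptn 0.29, Sprr1b 0.47, Crispld2 -0.074 and Hbb-bs -0.83. Members against other day 4 spots then gave Crispld2 -0.13, Lce1m -0.047, Prss27 -0.19 and Krt2 -0.080, and against epidermis-rich spots Krt77 -0.14. The unwounded members against other spots gave Il1a -0.13 and a granular and cornified median of -0.12. That score kept 3 of 50 day 4 spots. With unwounded part 2 only, the proliferation median was 0.29 and the ratios were 1.26 for Ccl27a, 1.70 for Cd207, 1.91 for Cdk1, 0.073 for Ccna2, 1.05 for H2-Aa, 0.78 for Fcer1g, -0.22 for Il18, 0.53 for Il34 and 1.49 for Il12rb2 (Cd207, Cdk1 and Il12rb2 had 0 UMIs there), and with part 4 only 0.10 for Rptn. The keratin reference, which holds Krt1 and Krt10 of the spinous list, gave a spinous median of -0.035 against the other day 4 spots. Without part 4 of day 4, S100a8 was -0.085 against the epidermis-rich spots, and without part 2 of unwounded Igfbp2 was 0.53. The cause of these moves was not tested, and some alternatives also had smaller pools. No paired analysis was possible because each group held 1 section. Depth limits Cd207 and other genes with few UMIs to wide intervals.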
